A study of Mus musculus with 8 samples.

Results

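The 10 genes followed here, Tsc22d3, Sgk1, Zbtb16, Ddit4, Klf9, Glul, Map3k6, Sult1a1, Arrdc2 and Rgcc, are known as genes that glucocorticoids induce in many tissues. They were taken by name from the 54134 genes of the deposited table, where each has 1 row, and all 10 were among the 14985 genes that reached 1 TPM (reads over transcript length, on a scale with 1 common total for all libraries) in 2 libraries or more. The study measured RNA in wild-type mouse bone marrow adipocytes, cells obtained by growing bone marrow stem cells for 14 days with an adipogenic differentiation kit (StemPro), and its title names glucocorticoid-driven senescence and inhibition of PPARγ, the nuclear receptor that drives adipocyte differentiation, as its theme. The Control group (n = 2 libraries) received adipogenic differentiation only. The group labelled GC (n = 3) was then exposed for 24 hours to 1e-06 M dexamethasone (DEX), a synthetic glucocorticoid hormone. The group labelled GC+GW9662 (n = 3) was given the same DEX for the same time together with GW9662, an inhibitor of PPARγ, whose dose the sources used here do not give. All groups share the wild-type genotype and the differentiation medium, whose content of glucocorticoid is not given either, and cells with GW9662 but no DEX were not analysed here. Whether replicate libraries stem from separate cultures is not in the labels, so the p-values below cover only the spread among these samples, which may be technical.

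Glucocorticoids act through the glucocorticoid receptor, encoded by Nr3c1, which waits in the cytoplasm on heat shock chaperones, moves to the nucleus once it has bound hormone and attaches to DNA at glucocorticoid response elements. Such an element is an inverted repeat of a short arm around a spacer, and the genes near it are usually transcribed more within hours of hormone. In bone marrow, glucocorticoids are known to favour adipocytes over osteoblasts, and they are a usual part of media that turn stromal cells into adipocytes. Some members, such as Tsc22d3, serve as readouts of the activated receptor, and the response known for the members from other tissues is a rise with glucocorticoid. In the libraries labelled GC none of the 10 members passed as higher than Control and 7 passed as lower, beside 16.2% and 39.1% of all tested genes, so that the absence of higher members is near the background. Every direction below rests on the library labels, and the groups are named only as they are labelled.

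The TPM values were whole multiples of 1 read per library for nearly all genes (96.7% of those above 0 at the longest annotated transcript), which gave 17450464 to 26541977 reads per library (17696926 in GC replicate 1 and 17450464 to 18484874 in GC+GW9662, against 24962935 to 26541977 in the other 4 libraries). Libraries of a group correlated at 0.947 to 0.994 across genes (log2(TPM + 1)), and libraries of different groups at 0.780 to 0.906. GC replicate 1 stood apart in its group: against GC replicates 2 and 3 its genes were higher by a median of 0.21 (log2) in the shortest of 10 bins of transcript length and at -0.82 in the longest. The median of all tested genes was -0.38 in GC against Control, -0.11 in GC+GW9662 against GC and -0.49 in GC+GW9662 against Control. Scaling the libraries to a common median ratio brought these to 0.04, -0.01 and 0.01, so differences are also given relative to the median of all genes. As to the labelled cell type, of 14 adipocyte markers 13 were detected in every group and Lep was at 0 in all libraries. Their summed level was 2110 to 2151 TPM in Control and 362 to 427 TPM in GC, and with GW9662 1561 to 1710.0 TPM. Of 12 adipocyte markers tested 10 were lower and 1 higher in GC than in Control, beside 39.1% and 16.2% of all genes. In GC+GW9662 against Control 4 were lower and 4 higher, beside 48.6% and 14.1%. The 14 macrophage markers summed to 35900 to 36600, 11450 to 11750 and 31060 to 35220 TPM, and 14 stromal and osteoblast markers to 7797 to 8134, 2569 to 2727 and 5095 to 6519. Macrophage markers thus summed to more than adipocyte markers in every group. Most of the stromal sum was Spp1, with means of 6432, 2572 and 5501 TPM in the same order. Of the 13 stromal markers tested 12 were lower and none higher in GC than in Control, beside 39.1% and 16.2% of all genes. In GC+GW9662 against Control 12 were also lower and none higher, beside 48.6% and 14.1%. Of the 14 macrophage markers 12 were lower and 1 higher in GC than in Control, beside 39.1% and 16.2% of all genes. In GC+GW9662 against Control 8 were lower and 1 higher, beside 48.6% and 14.1% of all genes, although the sums were close. In such bulk RNA fewer cells of a type and less RNA of a gene per cell cannot be told apart. Neutrophil markers (9 genes, Ltf at 0) summed to 26.4 to 32.8 TPM in Control and 249.8 to 550.5 TPM in GC. With GW9662 their sum was 75.4 to 86.6 TPM. S100a8 alone had a mean of 22.8 TPM in Control and 381 TPM in GC. Of the 3 neutrophil markers tested, S100a8 was higher in GC than in Control, 1 (Mmp8) was lower and 1 did not pass. Among all genes 16.2% were higher and 39.1% lower. Endothelial markers (8 genes) summed to 76.4 to 82.9, 9.08 to 16.2 and 24.9 to 26.6 TPM in the order Control, GC and GC+GW9662. Eng alone had means of 69.1, 8.62 and 17.3 TPM in that order. Of the 4 endothelial markers tested 3 were lower and none higher in GC than in Control, beside 39.1% and 16.2% of all genes. In GC+GW9662 against Control 3 were lower and 1 higher, beside 48.6% and 14.1%. Lymphocyte markers (10 genes, Ms4a1 at 0) and erythroid markers (8 genes, Hbb-bt at 0) stayed at or under 26.9 and 2.62 TPM. The part of these markers, of transcript length and of depth in the differences between groups was not tested, except where a value without the length trend is given.

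The promoter windows of the members, 250 bases before to 50 after each RefSeq gene start (build GRCm38.p6), were searched on both strands for the letters of the response element. RefSeq gave 16 windows for 9 of the 10 genes; Zbtb16 had none. The strict element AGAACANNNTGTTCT, which contains the arm AGAACA on each strand, was in 1 member window, an Sgk1 start, and in 3 of all 32851 windows (0.00913%), the other two belonging to Acnat2 and Gm35041. A looser form, GNACANNNTGTNC, which the strict element also satisfies, was in 2 member windows (Sgk1 and Map3k6) and in 0.475% of all windows. The arm alone was in 5 of the 16 windows and in 19% of all. Sgk1 has 6 of the 16 windows and held more of those 5 than any other gene, and the rest were of Tsc22d3 and Sult1a1. The 4 windows below are shown because they hold these letters in genes that went different ways in the data: Sgk1 differed little between groups, Map3k6 was low in both treated groups, and Sult1a1 and Tsc22d3 were far lower in GC than in both other groups. Capitals mark the matches. These are the strict element in Sgk1 (189 bases before the start) with another arm upstream and the loose element in Map3k6 (181 bases before the start). Sult1a1 holds 2 separate arms and Tsc22d3 holds 1. A match in letters does not show that the receptor binds there, and windows of this size leave out elements that lie farther away.
Sgk1, chr10:21993640-21993939, plus strand: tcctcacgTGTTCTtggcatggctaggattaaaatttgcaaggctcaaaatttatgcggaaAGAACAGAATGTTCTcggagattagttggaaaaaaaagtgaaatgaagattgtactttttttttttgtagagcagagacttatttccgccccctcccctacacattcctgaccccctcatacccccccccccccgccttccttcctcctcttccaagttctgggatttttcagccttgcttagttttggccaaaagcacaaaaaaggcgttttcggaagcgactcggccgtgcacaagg
Map3k6, chr4:133240568-133240867, plus strand: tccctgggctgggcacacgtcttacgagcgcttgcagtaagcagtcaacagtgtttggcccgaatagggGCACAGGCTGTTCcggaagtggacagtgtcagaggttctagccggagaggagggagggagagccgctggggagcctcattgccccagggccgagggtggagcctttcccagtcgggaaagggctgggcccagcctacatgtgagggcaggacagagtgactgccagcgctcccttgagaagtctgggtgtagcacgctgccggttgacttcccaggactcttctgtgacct
Sult1a1, chr7:126676369-126676668, minus strand: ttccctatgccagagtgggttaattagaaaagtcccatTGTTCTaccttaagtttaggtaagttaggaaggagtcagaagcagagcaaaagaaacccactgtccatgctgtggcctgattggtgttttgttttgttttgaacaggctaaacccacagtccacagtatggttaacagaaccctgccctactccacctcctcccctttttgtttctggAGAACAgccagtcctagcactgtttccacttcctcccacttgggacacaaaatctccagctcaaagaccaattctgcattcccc
Tsc22d3, chrX:140600473-140600772, minus strand: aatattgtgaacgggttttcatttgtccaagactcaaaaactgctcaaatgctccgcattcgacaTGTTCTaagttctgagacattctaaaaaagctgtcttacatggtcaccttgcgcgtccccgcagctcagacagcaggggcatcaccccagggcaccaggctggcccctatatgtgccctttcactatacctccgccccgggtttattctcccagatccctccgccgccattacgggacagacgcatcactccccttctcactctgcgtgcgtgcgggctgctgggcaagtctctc

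GC was set against Control to learn what DEX changed in these cultures. Of the 10 members 7 were lower in GC, none was higher and 3 (Sgk1, Arrdc2 and Rgcc) did not pass, with limma on log2(TPM + 1) and Benjamini-Hochberg adjusted p under 0.05. Among all tested genes 39.1% were lower and 16.2% higher, 55.3% in either direction. At an unadjusted p under 0.05 the count of higher members was also 0, and limma voom on the recovered reads called 1 (Rgcc). Voom took its library sizes from median ratios of those reads, so it is not independent of median-ratio scaling. The largest differences were those of Sult1a1 (-5.23 on the log2 scale), Zbtb16 (-3.74) and Tsc22d3 (-3.21), and the median of the members was -1.10 against -0.38 for all genes. Values of the 2 groups did not overlap in 8 members, as in 71.9% of all genes. With median-ratio scaling the split was 1 higher and 5 lower, against 4070 higher and 4025 lower among all genes, where 2428 and 5863 passed without it. Without Control replicate 2 the count of lower members was 4 (Sult1a1, Zbtb16, Tsc22d3 and Glul), and without Control replicate 1 it was 5. Without GC replicate 1, which stood apart, it was 8.

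**Figure D1:**
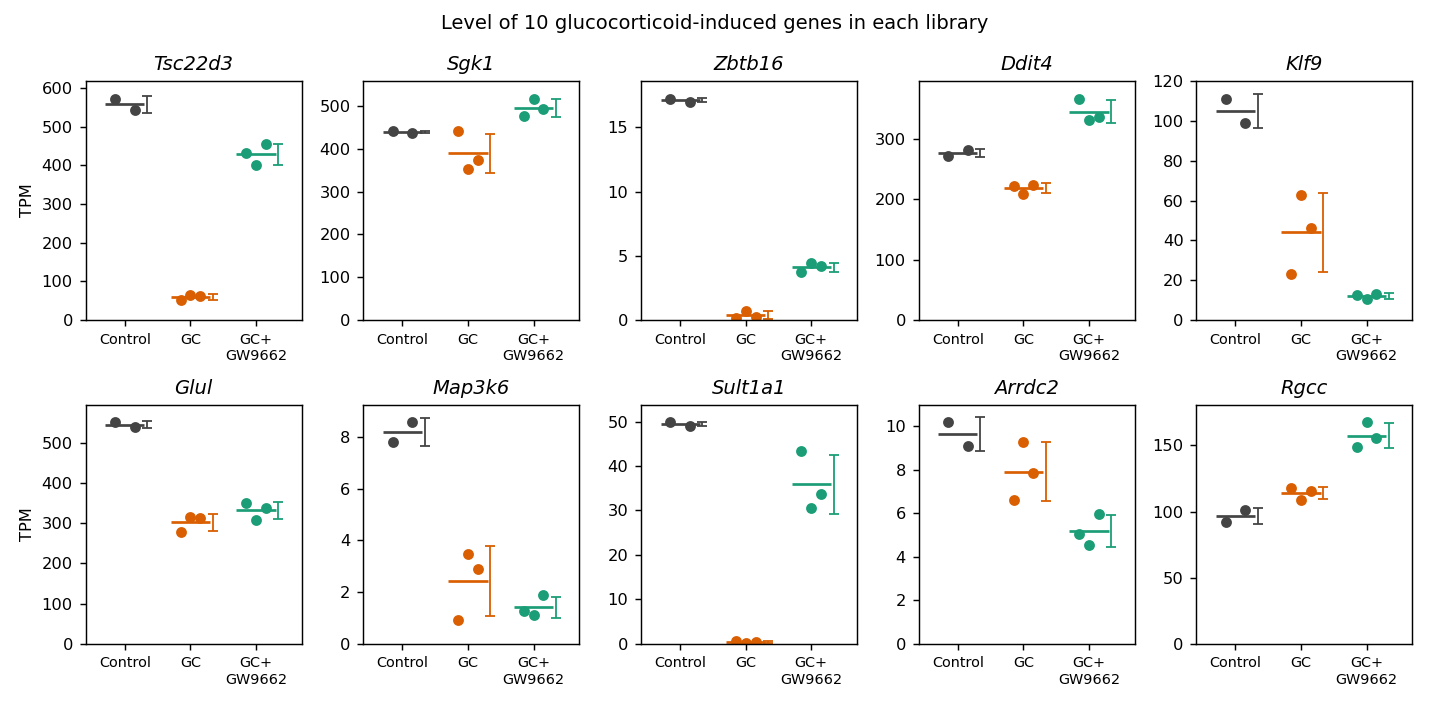
TPM of the 10 genes in each library (points; 2 of Control, 3 of GC and 3 of GC+GW9662), with the group mean (horizontal line) and SD (bar at its right), each panel on its own linear axis from 0. Tsc22d3, Zbtb16 and Sult1a1 are lowest in GC (means 59.6, 0.370 and 0.353 TPM), Klf9 and Map3k6 are lowest in GC+GW9662 (12.1 and 1.41 TPM), and Sgk1 lies between 353 and 517 TPM in all libraries.

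GC+GW9662 was compared with GC to see what the PPARγ inhibitor changed in cells given DEX. Of the members 6 were higher with GW9662 (Sult1a1, Tsc22d3, Zbtb16, Ddit4, Rgcc and Sgk1), 2 were lower (Klf9 and Arrdc2) and 2 did not pass (Glul and Map3k6), beside 28.3% of all genes higher and 33.5% lower (61.7% in either direction). The median of the members was 0.41 and that of all genes -0.11. Groups did not overlap in 8 members and in 64.1% of all genes. The count of lower members fell to 1, Klf9, without any one of Control replicates 1 and 2, GC replicates 2 and 3 and GC+GW9662 replicates 1 and 2, because the call on Arrdc2 was lost.

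GC+GW9662 set against Control asked where the cells given both agents stood relative to cells given neither. Here 2 members were higher (Rgcc and Ddit4), 6 were lower (Klf9, Map3k6, Zbtb16, Arrdc2, Glul and Tsc22d3) and 2 did not pass (Sgk1 and Sult1a1), beside 14.1% and 48.6% of all genes (62.7% in either direction). The median of the members was -0.59 and that of all genes -0.49. All 10 members had groups that did not overlap, as had 79% of all genes. Without either control library or GC+GW9662 replicate 1 only Rgcc was higher. Median-ratio scaling turned the split to 4 higher and 3 lower, and over all genes from 2114 higher and 7284 lower to 4387 and 4741. The 3 comparisons share libraries pairwise, so their differences are given side by side and were not correlated.

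**Figure D2:**
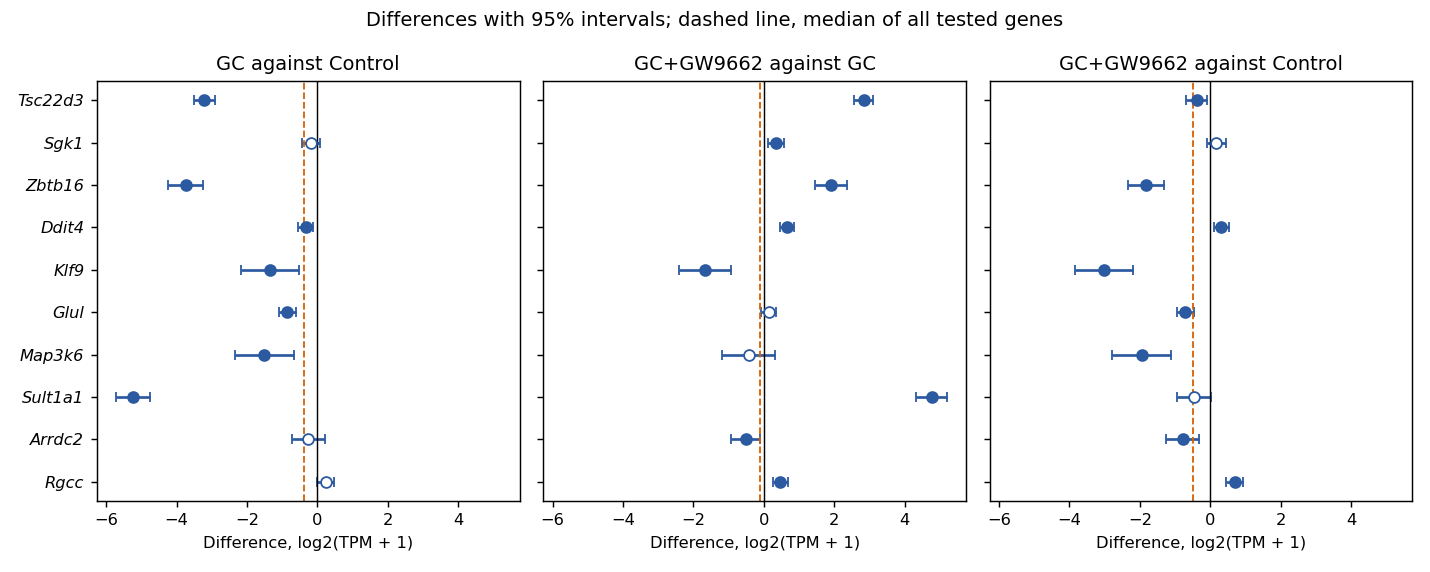
Difference of each gene on the log2(TPM + 1) scale in the 3 comparisons, with its 95% interval from limma. Filled points passed an adjusted p of 0.05, open points did not, and the dashed line is the median of all tested genes (-0.38, -0.11 and -0.49). Sult1a1, Tsc22d3 and Zbtb16 lie far to the left in GC against Control and to the right in GC+GW9662 against GC, while Klf9 lies to the left in all 3.

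Tsc22d3 (ENSMUSG00000031431, chrX:140539528-140600659, minus strand) encodes GILZ, a leucine zipper protein through which glucocorticoids restrain NF-kB and AP-1, and it is among the most widely used reporters of the receptor. It measured 572 and 543 TPM in the control libraries, 50.9, 65.4 and 62.7 TPM in GC and 432, 401 and 455 TPM in GC+GW9662. The GC libraries were thus far below all others, and GC+GW9662 lay just under Control with no overlap between any 2 groups. The mean was 558 ± 21.0 TPM (SD, n = 2) in Control and 59.6 ± 7.70 TPM (n = 3) in GC, and with GW9662 it was 429 ± 27.2 TPM (n = 3). GC was 9.35-fold lower than Control, a log2 difference of -3.21 ± 0.13 (SE, limma adjusted p = 8.7e-07), and GC+GW9662 was 7.20-fold higher than GC (2.83 ± 0.12, adjusted p = 8.3e-07). These 2 calls held in all 23 alternative settings, with log2 differences from -3.28 to -2.67 and from 2.61 to 3.02. The smaller difference between GC+GW9662 and Control (-0.38 ± 0.13, adjusted p = 0.033) was 0.12 relative to the median of all genes and changed sign with the scaling. It was 0.31 with median-ratio scaling (adjusted p = 0.035) and 0.35 with voom (0.019), whose library sizes also rest on median ratios. It also did not pass with Control replicate 1 or 2, GC replicate 3 or one of the GC+GW9662 libraries left out (adjusted p 0.052 to 0.17). Tsc22d3 has 3 RefSeq starts, and values per gene do not say from which one its RNA came.

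Sgk1 and Map3k6 encode kinases. Sgk1 (ENSMUSG00000019970, chr10:21882184-21999903, plus strand) encodes serum- and glucocorticoid-regulated kinase, which acts below PI3-kinase on ion channels and FOXO factors. Of its 6 promoter windows, only that shown above holds the strict response element. Sgk1 stood at 440.5 and 437 TPM in Control, 441, 353 and 375.0 TPM in GC and 476, 517 and 492 TPM in GC+GW9662. One GC library therefore sat at the control level and the other two below it, while all GC+GW9662 libraries were above. GC did not differ from Control beyond the spread (-0.18, 95% interval -0.44 to 0.09, adjusted p = 0.22), and the difference was 0.21 relative to the median of all genes. It passed as lower without GC replicate 1 (-0.27, adjusted p = 0.021) and had the opposite sign with median-ratio scaling (0.37) and with the length trend removed (0.31). GC+GW9662 was 1.27-fold higher than GC (0.35 ± 0.10, adjusted p = 0.018), which did not pass without GC replicate 3 (0.071), GC+GW9662 replicate 2 (0.053) or 3 (0.052) or with quantile normalization (0.05, adjusted p = 0.67). Against Control GC+GW9662 differed by 0.17 (interval -0.09 to 0.44, adjusted p = 0.21). This did not pass as fitted, and passed as higher with median-ratio scaling (0.86, adjusted p = 0.0096).

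Map3k6 (ENSMUSG00000028862, chr4:133240818-133252929, plus strand), also called Ask2, encodes a kinase that feeds the stress-activated JNK and p38 pathways. Its level was low: 7.80 and 8.56 TPM in Control, 0.901, 3.49 and 2.88 TPM in GC and 1.25, 1.10 and 1.88 TPM in GC+GW9662, which correspond to 358 and 422, 39, 183 and 155, and 56, 52 and 90 reads. Both treated groups lay below Control without overlap, and they overlapped each other because GC replicate 1 was as low as the GC+GW9662 libraries. GC was lower than Control by 3.38-fold (-1.51 ± 0.36, adjusted p = 0.0081), a call lost without Control replicate 2 (-1.45, adjusted p = 0.055) and with quantile normalization (-0.79, 0.075). GC+GW9662 was lower than Control by 5.81-fold (-1.94 ± 0.36, adjusted p = 0.0033), which held in all 23 settings. The difference between the treated groups was -0.43 (interval -1.18 to 0.32, adjusted p = 0.28), and without GC replicate 1 it was -0.81 and passed (adjusted p = 0.0053).

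Zbtb16 and Klf9 encode transcription factors. Zbtb16 (ENSMUSG00000066687, chr9:48654297-48836222, minus strand) encodes PLZF, a zinc finger repressor that glucocorticoids induce strongly in stromal and endometrial cells and that is linked to osteogenic commitment. It measured 17.2 and 17.0 TPM in Control, 0.196, 0.710 and 0.205 TPM in GC and 3.71, 4.402 and 4.22 TPM in GC+GW9662. The GC values stood on 10, 44 and 13 reads, against 933 and 987 in Control and 196 to 246 in GC+GW9662. The order Control, GC+GW9662, GC held for every library. The mean in GC was 46.2-fold below Control (0.370 ± 0.295 against 17.1 ± 0.172 TPM, -3.74 ± 0.22 on the log2(TPM + 1) scale, adjusted p = 5.1e-06), and GC+GW9662 was 11.1-fold above GC (1.92 ± 0.20, adjusted p = 9.8e-05). Both calls held in all 23 settings. The pseudocount sets the size of such a low gene's difference, which was -5.36 with 0.1 and -2.04 with 5 in place of 1. GC+GW9662 was 4.16-fold below Control (-1.83 ± 0.22, adjusted p = 0.0013), except that removing the length trend left -0.47 (adjusted p = 0.10). With 5114 bases its transcript is the longest among the members.

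Klf9 (ENSMUSG00000033863, chr19:23141226-23166911, plus strand) encodes a Krüppel-like factor that passes glucocorticoid signals to clock and differentiation genes. It measured 111 and 99.0 TPM in Control, 23.04, 62.6 and 46.4 TPM in GC and 12.7, 10.5 and 13.1 TPM in GC+GW9662. It was the only member that went down at each step from Control to GC to GC+GW9662 with a passing test, and no 2 groups overlapped. GC was 2.39-fold below Control (-1.35 ± 0.36, adjusted p = 0.013) and GC+GW9662 was 3.63-fold below GC (-1.67 ± 0.32, adjusted p = 0.0025). GC+GW9662 was 8.67-fold below Control (-3.02 ± 0.36, adjusted p = 0.0012), and this and the difference between the treated groups held in all 23 settings. The call on GC against Control was lost without Control replicate 1 (adjusted p = 0.078) or 2 (0.052) and was -0.95 without GC replicate 1.

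Ddit4 and Rgcc encode regulators of growth and the cell cycle. Ddit4 (ENSMUSG00000020108, chr10:59949669-59951834, minus strand) encodes REDD1, which holds back the growth kinase complex mTORC1 under stress or glucocorticoids. It stood at 271 and 282 TPM in Control, 222, 209.5 and 225 TPM in GC and 367, 332 and 336 TPM in GC+GW9662. The 3 groups did not overlap, with GC lowest and GC+GW9662 highest. GC+GW9662 was 1.58-fold above GC (0.65 ± 0.08, adjusted p = 3.3e-04), a call that held in all 23 settings, from 0.43 to 0.83. GC was below Control by -0.34 ± 0.09 (adjusted p = 0.016), which is 0.05 relative to the median of all genes; it was 0.21 with median-ratio scaling and did not pass without Control replicate 1 (0.075) or 2 (0.12). GC+GW9662 was above Control by 0.32 ± 0.09 (adjusted p = 0.019), a call lost without either control library (0.13 and 0.076) or GC+GW9662 replicate 1 (0.060).

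Rgcc (ENSMUSG00000022018, chr14:79288756-79301645, minus strand) encodes a regulator of the mitotic kinase CDK1, first described as a response gene to complement. It measured 92.4 and 101.0 TPM in Control, 117.5, 109 and 115 TPM in GC and 149.0, 167 and 156 TPM in GC+GW9662, so that every GC library lay above Control and every GC+GW9662 library above GC. The difference of GC from Control was 0.23 (interval -0.01 to 0.47, adjusted p = 0.09) and did not pass. Relative to the median of all genes it was 0.62, and with median-ratio scaling it passed as higher (0.77, adjusted p = 0.0066). GC+GW9662 was 1.38-fold above GC (0.46 ± 0.09, adjusted p = 0.0033) and 1.63-fold above Control (0.70 ± 0.10, adjusted p = 0.0020). The latter held in all 23 settings, and the former in all but 1, the removal of the length trend (0.13, adjusted p = 0.21). At 918 bases its transcript is the shortest among the members.

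Glul and Sult1a1 encode enzymes. Glul (ENSMUSG00000026473, chr1:153899944-153909723, plus strand) encodes glutamine synthetase, which joins ammonia to glutamate and is induced by glucocorticoids in muscle, fat and brain. It measured 551 and 539 TPM in Control, 278, 316 and 313 TPM in GC and 349.9, 309.0 and 338 TPM in GC+GW9662. Both treated groups were below Control, and they overlapped each other. GC was 1.80-fold below Control (-0.85 ± 0.10, adjusted p = 2.3e-04) and GC+GW9662 1.64-fold below it (-0.71 ± 0.10, adjusted p = 0.0019). Relative to the median of all genes these differences were -0.47 and -0.22, and with median-ratio scaling neither passed (-0.31, adjusted p = 0.055, and -0.02, 0.88). The difference between the treated groups was 0.14 (interval -0.08 to 0.35, adjusted p = 0.23), and passed as higher with median-ratio scaling (0.28, adjusted p = 0.044).

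Sult1a1 (ENSMUSG00000030711, chr7:126672865-126676432, minus strand) encodes a sulfotransferase that conjugates phenols, steroids and drugs. It measured 49.8 and 49.1 TPM in Control, 0.585, 0.181 and 0.294 TPM in GC and 43.4, 30.5 and 33.6 TPM in GC+GW9662. The GC libraries held 8, 3 and 5 reads of this gene, the Control libraries 723 and 765 and the GC+GW9662 libraries 457 to 614, so the gene was close to 0 under the GC label and well above it in both other groups. On the log2(TPM + 1) scale GC was below Control by -5.23 ± 0.21 (adjusted p = 8.6e-07) and GC+GW9662 above GC by 4.76 ± 0.19 (adjusted p = 7.1e-07), the largest differences among the members in those comparisons, and both held in all 23 settings. GC+GW9662 and Control differed by -0.47 (interval -0.95 to 0.01, adjusted p = 0.082), with no overlap of values. This passed as lower without GC replicate 1 (0.029) or GC+GW9662 replicate 1 (0.043), and was 0.21 with median-ratio scaling (adjusted p = 0.40). Sgf29, on the opposite strand, overlaps Sult1a1, and the counting is not stated to use strand. Sgf29 measured 33.96 and 34.4 TPM in Control, 34.03, 48.7 and 43.0 TPM in GC and 29.4, 23.9 and 28.0 TPM in GC+GW9662, and was thus not low in the libraries where Sult1a1 was.

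Arrdc2 (ENSMUSG00000002910, chr8:70835129-70839720, minus strand) encodes an arrestin-domain protein of the family that links membrane proteins to ubiquitin ligases. It measured 10.2 and 9.08 TPM in Control, 6.59, 9.29 and 7.84 TPM in GC and 5.06, 4.55 and 5.99 TPM in GC+GW9662. GC overlapped Control and GC+GW9662 was below both. GC and Control differed by -0.26 (interval -0.73 to 0.20, adjusted p = 0.30). GC+GW9662 was 1.85-fold below Control (-0.78 ± 0.20, adjusted p = 0.01), a call lost without Control replicate 1 (0.091) and with median-ratio scaling (-0.18, adjusted p = 0.36). It was 1.52-fold below GC (-0.52 ± 0.18, adjusted p = 0.036), but without any single library other than GC replicate 1 or GC+GW9662 replicate 3 this did not pass (adjusted p 0.069 to 0.11).

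**Figure D3:**
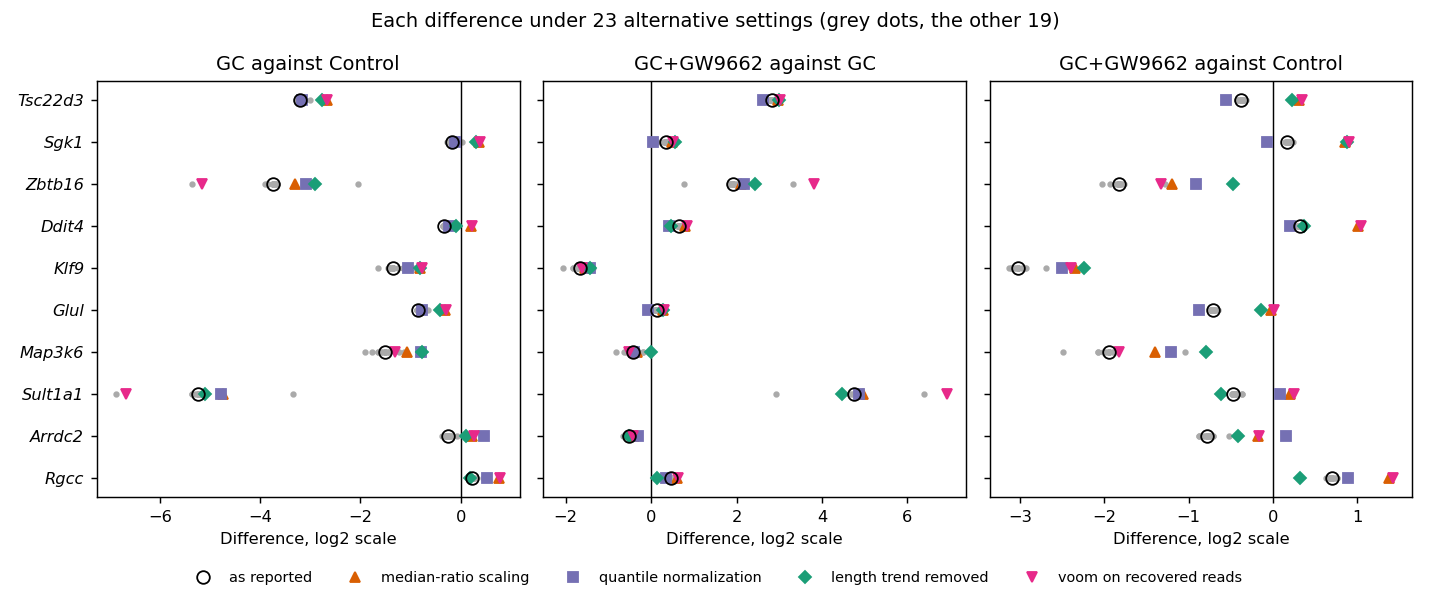
Log2 difference of each gene as reported (open circle) and under 23 alternative settings, of which 4 are marked by shape and the other 19 are grey dots. In GC against Control the points of Tsc22d3, Zbtb16, Klf9, Glul, Map3k6 and Sult1a1 all stay left of 0, while those of Sgk1, Ddit4 and Arrdc2 fall on both sides of it.

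In levels per transcript length, Glul, Tsc22d3 and Sgk1 were the most abundant members in Control, at or above percentile 97.9 of the tested genes in each control library, and Map3k6 and Arrdc2 the least (percentiles 38.9 to 44.0). Sgk1 kept its rank in every library (percentiles 97.5 to 97.9). Tsc22d3 stood at percentiles 83.7 to 85.0 in GC and 97.3 to 97.6 in GC+GW9662. Sult1a1 went from percentiles 77.5 to 77.6 in Control to 4.6 to 12.4 in GC and 77.1 to 80.5 in GC+GW9662, a rank at or near that of Control although its TPM were lower. Klf9 went from 88.2 to 89.4 in Control to 72.7 to 84.4 in GC and 60.1 to 63.0 in GC+GW9662. The rank of Arrdc2 was 48.8 to 51.7 in GC, above the 42.2 to 44.0 of Control, while its TPM were not.

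The receptor and the other genes of the pathway were read from lists. Nr3c1, the receptor itself, measured 35.8 and 32.3 TPM in Control, 6.56, 24.0 and 18.0 TPM in GC and 5.99, 5.62 and 5.62 TPM in GC+GW9662, and its GC libraries were wide apart. It was lower in GC+GW9662 than in Control (-2.38 ± 0.44, adjusted p = 0.0032), while GC was below Control by -1.19 ± 0.44 (adjusted p = 0.047). The latter did not pass when either control, GC replicate 3 or any single GC+GW9662 library was left out (adjusted p 0.058 to 0.18), and was -0.23 with the length trend removed (0.41). Of 18 tested genes of the receptor machinery (chaperones, coactivators, corepressors and cortisol-converting enzymes) 8 were lower and 1 higher in GC than in Control, near the 39.1% and 16.2% of all genes. In GC+GW9662 against Control 16 were lower, beside 48.6% of all genes, and none higher, beside 14.1% (0 also at an unadjusted p under 0.05 and with voom, which called 13 lower). H6pd, which supplies the cofactor for hormone reactivation, had a mean of 164 ± 4.34 TPM in Control, 40.3 ± 14.4 TPM in GC and 37.8 ± 2.101 TPM with GW9662. Several of these transcripts are long, a class that was lower in both treated groups: in the longest of 10 bins the median of all genes was -1.03 in GC and -1.67 in GC+GW9662 against Control, and in the shortest it was 0.18 and 0.59. The chaperone genes Hsp90aa1 (-3.10 ± 0.56) and Hspa8 (-1.55 ± 0.23) were lower in GC+GW9662 than in GC.

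Other genes that glucocorticoids induce went both ways. Of 27 tested, 14 were lower and 9 higher in GC than in Control, beside 39.1% and 16.2% of all genes, with a median of -0.32 beside -0.38 for all genes. Fkbp5, a receptor chaperone and feedback gene, measured 463 and 429 TPM in Control, 32.5, 80.3 and 62.7 TPM in GC and 104, 78.8 and 103.5 TPM in GC+GW9662. It was lower than Control in both treated groups (-3.00 ± 0.33, adjusted p = 1.4e-04, and -2.23 ± 0.33, adjusted p = 0.0020). Anxa1, an anti-inflammatory annexin, followed the pattern of Tsc22d3 with a mean of 1785 ± 89.3 TPM in Control, 82.2 ± 5.65 TPM in GC and 886 ± 181 TPM in GC+GW9662, as did Angptl4, an inhibitor of lipoprotein lipase, with 38.5 ± 0.127, 0.663 ± 0.224 and 18.6 ± 1.92 TPM. Angptl4 and Pdk4 (83.6 ± 7.29, 2.56 ± 0.821 and 25.4 ± 2.96 TPM) are also known as PPARγ targets. The opposite pattern was found in Gadd45b, a stress gene, at 54.9 ± 1.43, 1194 ± 74.1 and 64.8 ± 5.65 TPM, and in Dusp1, a phosphatase that switches off MAP kinases, which was higher in GC than in Control (1.92 ± 0.09, adjusted p = 2.0e-06) and lower in GC+GW9662 than in GC (-1.75 ± 0.08, adjusted p = 1.8e-06). The metallothionein genes Mt1 and Mt2, which bind zinc and other metals, were also higher in GC than in Control, opposite to the 7 members that passed as lower. Mt1 had means of 1061 ± 8.52 TPM in Control, 3587 ± 206 TPM in GC and 944 ± 27.6 TPM with GW9662. Mt2 had 2738 ± 1.04, 8418 ± 270.0 and 2141 ± 63.4 TPM. The log2 differences of Mt1 and Mt2 were 1.75 and 1.62 in GC against Control and -1.92 and -1.98 in GC+GW9662 against GC. Per1, a clock gene, was lower in GC (-0.92 ± 0.28, adjusted p = 0.025), a call lost without either control library (0.10 and 0.11) and with median-ratio scaling (-0.39, 0.14). In GC+GW9662 against Control 20 of the 27 were lower, beside 48.6% of all genes, and none higher, beside 14.1% (0 at an unadjusted p under 0.05), a split that median-ratio scaling turned to 12 and 6 and voom to 12 and 8.

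Genes that glucocorticoids are known to repress also went both ways. Of 16 tested inflammatory genes 7 were higher and 7 lower in GC than in Control, beside 16.2% and 39.1% of all genes. Mmp3, a matrix protease gene, measured 17.8 ± 0.472, 778 ± 50.4 and 8.40 ± 0.923 TPM in the same order of groups, and the cytokine gene Tnf 4.81 ± 0.201, 42.5 ± 8.43 and 4.51 ± 1.11 TPM. The adhesion genes Vcam1 (-2.77 ± 0.18) and Icam1 (-2.24 ± 0.19) were lower in GC than in Control.

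Relatives of the members, from the same gene families, were lower in GC than in Control in 14 of 20 cases and higher in 4, beside 39.1% and 16.2% of all genes, with a median of -1.25 beside -0.38. Tsc22d1, a relative of Tsc22d3, measured 144 ± 4.50, 46.3 ± 1.76 and 120 ± 12.6 TPM in the order Control, GC and GC+GW9662 and thus also was lowest in GC. Another relative of Tsc22d3 was instead highest in GC. Txnip, an arrestin-domain relative of Arrdc2 that blocks glucose uptake, measured 444 ± 8.30, 51.4 ± 6.16 and 259 ± 10.2 TPM, while Arrdc4 measured 44.8 ± 1.46, 129 ± 3.31 and 31.2 ± 1.36 TPM. The 3 relatives Klf13 (-3.24 ± 0.26), Sgk3 (-1.96 ± 0.19) and Tsc22d1 (-1.62 ± 0.12) were lower in GC than in Control, each with adjusted p of 6.2e-05 or less.

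**Figure D4:**
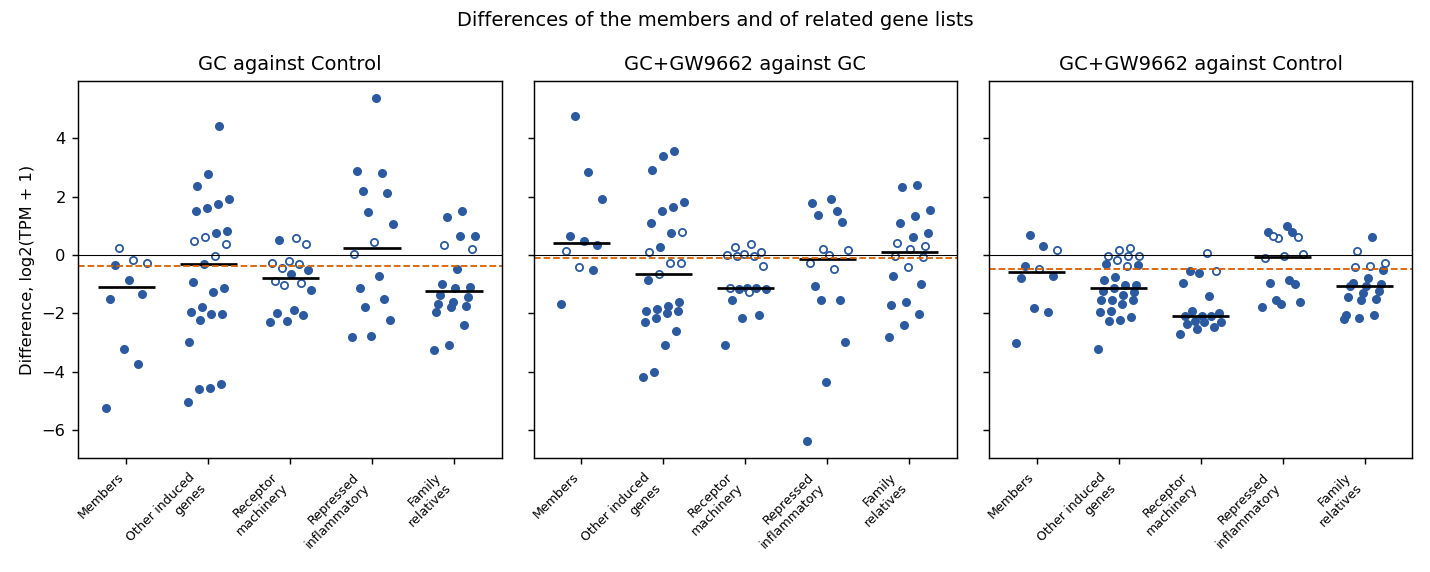
Differences on the log2(TPM + 1) scale of the 10 members and of the tested genes of 4 related lists (27 other induced genes, 18 of the receptor machinery, 16 repressed inflammatory genes and 20 family relatives). Each point is a gene, filled where it passed, with the list median (black bar) and the median of all tested genes (dashed line). In GC against Control the median is -1.10 for the members and -0.32 for the other induced genes, whose points spread to both sides of 0.

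The genes whose profile over the 8 libraries was most like that of a member were found by Pearson's r of log2(TPM + 1), among tested genes with a mean of at least 5 TPM. With 3 groups far apart, r near 1 mainly says that the group means share an order and spacing. Nearest to Tsc22d3 were Ccnd3 (r = 0.999), Ephx2 (0.999) and Irf5 (0.999). Those of Sult1a1 were Cyp20a1 (0.9996), Pfn1 (0.999) and Nr1h3 (0.999), all 3 with GC lowest and GC+GW9662 just under Control. For Zbtb16 they were Lrrc32, Plcd1 and Hdac7 (0.997 to 0.998), and for Klf9 Ireb2, Lmbrd2 and Appl2 (0.997 to 0.998). Map3k6 was most like Kif13b, Mindy2 and Calcoco1 (0.997 to 0.998), Arrdc2 like Serinc5, Rps6ka2 and Arl14ep (0.995 to 0.996), and Glul like Klf6, Tnfaip2 and Hsd17b4 (0.997 to 0.998). Rgcc was like the ribosomal protein genes Rpl23 and Rpl13a (0.987 and 0.985), which have near-identical pseudogenes that can share their reads. Sgk1 (Kantr, Ppdpf and Mcrip2, 0.981 to 0.984) and Ddit4 (Mdp1, Nat14 and Unc119, 0.988 to 0.989) had looser matches.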

How the data were processed

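The authors deposited TPM per gene for 8 libraries. Per the labels' protocols these were Smart-Seq2 libraries, and the submitters' processing notes name fastp, featureCounts and HISAT2 2.1.0; the build and annotation are not given in the sources used here. Coordinates equalled GENCODE M21 (GRCm38) in 97.4% of genes. Of 54232 rows, 96 symbols stood on several rows with the same values and were used once, and for 27 symbols that read as dates the name was taken by Ensembl ID. Of 26812 genes above 0, 25918 gave whole reads (tolerance 0.02) at the longest M21 transcript and 892 at another length, the smallest that worked. Reads without molecular identifiers bound counting error only.

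On log2(TPM + 1), limma 3.58.1 (R 4.3.3) fitted group means to the 8 libraries for genes reaching 1 TPM in 2 or more, with an expression-dependent prior, two-sided p-values and Benjamini-Hochberg adjustment (threshold 0.05). That scale understates changes of low genes. The fit was tested on simulated data. Alternatives were pseudocounts of 0.1 and 5, filters of none and 5 TPM, other scalings, priors and weights, the compared groups alone, replicate blocks, each library left out, removal of the length trend, and voom on recovered reads. Python 3.11.15 (numpy 2.4.6, pandas 2.3.3, matplotlib 3.10.9) prepared and plotted tables. Members and lists were chosen with earlier results of these data known. Other genes were named by rule: up to 5 passing genes per list with the smallest p, Nr3c1, Fkbp5, Per1 and Dusp1 always, and 3 nearest profiles per member. Genes that met this rule but were withheld are not reported here. Acnat2, Gm35041, Sgf29, S100a8, Mmp8, Spp1 and Eng were named outside it after the data were seen. Control2 is C3 in its bracketed label; replicates are named by title.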

Additional observations from a re-analysis of the deposited data

How the results depend on the processing

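Of 690 differences (10 genes, 3 comparisons, 23 alternatives) 588 kept their sign and side of the threshold, 58 no longer passed, 23 newly passed and 21 changed sign. Median-ratio scaling and voom both set library sizes by median ratios, so their results are not independent. Voom and removal of the length trend were chosen after seeing the data. The cause was not tested. In GC against Control, Sgk1 changed sign with median-ratio scaling (0.37), rescaling without mitochondrial and the top 20 genes (0.03), the length trend removed (0.31) and voom (0.38), Ddit4 with median-ratio scaling (0.21) and voom (0.22), and Arrdc2 with median-ratio scaling (0.22), quantile normalization (0.46), the length trend removed (0.11) and voom (0.27). In GC+GW9662 against GC, Glul did with quantile normalization (-0.08) and rescaling (-0.01). In GC+GW9662 against Control, Tsc22d3 did with median-ratio scaling (0.31), the length trend removed (0.23) and voom (0.35), Sgk1 with quantile normalization (-0.07), Glul with voom (0.01), Sult1a1 with median-ratio scaling (0.21), quantile normalization (0.09) and voom (0.25), and Arrdc2 with quantile normalization (0.16). Zbtb20, a relative of Zbtb16, changed sign there without the length trend (0.21).

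Members higher in GC than in Control numbered 1, not 0, with median-ratio scaling, quantile normalization, rescaling, library weights and voom. Members lower there numbered 7, and 4 to 8 with single libraries left out. In GC+GW9662 against GC the 2 lower members became 1 with no filter, quantile normalization, the 2 compared groups alone and voom, and 1 to 3 with single libraries left out. In GC+GW9662 against Control the 2 higher members became 4 with median-ratio scaling and voom, 1 with quantile normalization or a constant prior, and 1 to 2 with single libraries left out, and the 6 lower members became 3 with median-ratio scaling, the length trend removed and voom.

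The deviations from the group means correlated at -0.10, -0.12 and 0.08 in same-numbered treated pairs. In differently numbered treated pairs they correlated at -0.10 to 0.14. Replicate numbers thus gave no sign of pairing, but so few libraries cannot show whether the libraries were paired. With a replicate block by title number, members lower in GC+GW9662 than in GC numbered 1, as with the bracket number, and members higher in GC+GW9662 than in Control numbered 1. With Control reduced to 1 library, that library is assumed to vary like the other groups. Depth limits Sult1a1 and Zbtb16 in GC, which stand on 3 to 44 reads.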
